A study of Homo sapiens with 6 samples.

Results

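The OAS genes encode antiviral enzymes and their relatives, and 4 of them (OAS1, OAS2, OAS3 and OASL) were read among the 22354 loci of a gene count table. They were chosen by measured values, because the level of OASL differed more between the 2 groups of libraries than that of its relatives, so their differences between the groups are given as a description and no test result is reported for them. The 6 RNA-seq libraries came from the thyroid cell line HTori-3.1: 3 from wild-type cells, labelled control, and 3 labelled BMAL1 knockout. For the knockout, cells received Cas9 and a guide RNA against BMAL1 by lentivirus, were selected with puromycin and were grown from single clones, and how many clones the 3 libraries represent is not given in the sources used here. Etoposide, which breaks DNA through topoisomerase, was given to both groups at 2 μM, for 12 h by the sample labels and for 24 h by the protocol. The labels do not say that the libraries of a group came from separate cultures, so p-values measure only the spread between these samples, which may be technical. Total counts were 26893063, 27029060 and 28513703 for control, against 43148059, 29860233 and 43563391 for the group labelled BMAL1 knockout. All 4 OAS genes passed the filter on low counts, as did 14860 loci in all.

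BMAL1 is the gene the guide RNA targets. It was read at 11.3, 12.2 and 14.6 CPM (reads scaled to library size by the TMM method) in the control libraries and at 17.9, 19.8 and 19.4 CPM in the libraries labelled BMAL1 knockout. The transcript was higher, not lower, in all 3 of the latter, which alone does not tell whether the knockout was made. The log2 fold change of BMAL1 was 0.58 (standard error 0.113, edgeR quasi-likelihood test with Benjamini-Hochberg adjustment, adjusted p = 0.0204). The adjusted p was 0.0896, 0.113, 0.0749 and 0.0598 without control replicate 1, control replicate 2, knockout replicate 2 and knockout replicate 3. The RNA level does not measure the protein, for which the authors collected cells to check the knockout by western blot, a measure not analysed here. Every direction below is that of the libraries labelled BMAL1 knockout over control. BMAL1 shares 421 exon bases with a gene on the opposite strand, and the strandedness of the counts is not given in the sources used here. Of 7 thyroid follicular markers, PAX8 was the most abundant (133 CPM in control and 110 CPM in the libraries labelled BMAL1 knockout) and FOXE1 was also above 1 CPM, whereas NKX2-1 was listed at 0. Of 4 epithelial markers, KRT8 was the most abundant and KRT18 was lower, at a log2 fold change of -0.50 (edgeR, adjusted p = 0.00583), and at 0.0524 without control replicate 2. KRT8 and KRT18 share 525 exon bases on opposite strands. EPCAM and CDH1 of that list averaged 0.125 and 0.233 CPM in control and 0.381 and 0.300 CPM in the libraries labelled BMAL1 knockout. The summed level of the epithelial markers was 2260, 2310 and 2220 CPM in control and 1810, 1710 and 1760 CPM in the libraries labelled BMAL1 knockout. The 6 leukocyte markers summed to 19.3, 19.9 and 17.9 CPM in control and 14.2, 12.5 and 13.1 CPM in the others. CD68 was the most abundant and CD3E was at 0. CD68 shares 1765 exon bases, 81.6% of its own, with a gene on the same strand that is not listed, so its value is uncertain. PTPRC of that list fell by 1.43 on the log2 scale (edgeR, adjusted p = 0.00127), while CD14 was at 0.261, 0.337 and 0.643 CPM in control and 0.375, 1.05 and 1.08 CPM in the others and did not pass (adjusted p = 0.318). Fewer cells of a type and less RNA per cell cannot be told apart in these bulk libraries. The part of these markers in the results below was not tested.

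OAS1, OAS2 and OAS3 are enzymes that bind double-stranded RNA and join ATP into short chains of adenosine with 2-5 linkages, called 2-5A. These chains take part in a response that limits viral growth. OASL resembles them but lacks this synthesis activity and carries ubiquitin-like domains, with which it meets the RNA sensor RIG-I. The genes are induced by interferon.

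OAS1, OAS3 and OAS2 lie side by side on chromosome 12 of hg38, at 112905856 to 112933219, 112938051 to 112976460 and 112978395 to 113011723, all on the forward strand. OASL lies 8.01 Mb farther along, at 121017763 to 121039246, on the reverse strand. The promoter table from RefSeq (GRCh38.p14) held OAS1 and OAS3. Their 250 bases before the start site are shown because members that are induced by interferon may carry the response element, searched on both strands as GAAA, any 2 bases and GAAA, with capitals marking 2 GAAA words separated by 1 or 2 bases. This pattern was in 1255 of 35116 promoter windows of 300 bases (3.57%).
OAS1 at chr12:112906712-112906961, forward strand: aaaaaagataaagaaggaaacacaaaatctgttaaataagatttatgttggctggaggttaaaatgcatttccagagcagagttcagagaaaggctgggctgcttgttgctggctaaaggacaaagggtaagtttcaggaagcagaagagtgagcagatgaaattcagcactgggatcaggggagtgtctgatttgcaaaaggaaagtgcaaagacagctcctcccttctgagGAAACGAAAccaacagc
OAS3 at chr12:112938224-112938473, forward strand: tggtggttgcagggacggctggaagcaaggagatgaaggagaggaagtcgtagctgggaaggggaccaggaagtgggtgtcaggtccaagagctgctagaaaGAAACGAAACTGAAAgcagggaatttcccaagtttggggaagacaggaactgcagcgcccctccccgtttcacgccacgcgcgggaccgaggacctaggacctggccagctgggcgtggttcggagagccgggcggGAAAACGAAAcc
The OAS3 window held it at 2 places, starting 143 and 12 bases before the start site. The OAS1 window did not hold it. After the windows had been read, GAAANGAAA, with 1 base between the words, was searched too: it was in OAS1 at 17 bases before the start site, in OAS3 at 148 bases before it, where it overlaps the first match with 2 bases between, and in 1097 of all windows (3.12%). The E-box CACGTG, found in 2548 windows (7.26%), was in neither. A match is a description of the letters and not a bound site.

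OASL was the member that differed most. Its level was 81.9, 86.5 and 75.8 CPM in the control libraries and 37.0, 37.1 and 36.1 CPM in the libraries labelled BMAL1 knockout. The lowest control library lay above the highest of the others by 1.03 on the log2 scale, and the spread within the groups was 0.095 and 0.022 (SD of log2 CPM). The log2 fold change of OASL was -1.15 (standard error 0.0803). Reads on OASL numbered 2198, 2312 and 2123 in control and 1581, 1133 and 1601 in the others. No other annotated gene shares exon bases with OASL, and no stretch of 50 bases was shared between its transcripts and those of OAS1, OAS2, OAS3 or the pseudogene OASL2P.

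OAS2 also differed, at a much lower level. It was read at 5.74, 5.76 and 5.61 CPM in control and at 3.87, 3.67 and 2.87 CPM in the libraries labelled BMAL1 knockout. The groups did not overlap, and knockout replicate 3 was the lowest. Its log2 fold change was -0.72 (standard error 0.159), and without knockout replicate 3 it was -0.60. OAS1 was read at 4.96, 4.86 and 5.93 CPM in control and at 4.45, 4.78 and 4.67 CPM in the others. Control replicate 3 stood above the rest, and the other control libraries lay close to the other group. The OAS1 log2 fold change was -0.18 (standard error 0.145), and without control replicate 3 it was -0.08. OAS1 shares 222 of its exon bases with a gene on the opposite strand.

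OAS3, the member with the most reads, was at 116, 122 and 110 CPM in control and at 94.8, 115 and 113 CPM in the libraries labelled BMAL1 knockout. The groups overlapped, and knockout replicate 1 was the lowest. Its log2 fold change was -0.11 (standard error 0.0882), and without knockout replicate 1 it was -0.03. The values of all 4 genes were below 0 under each of the 14 alternatives run. For 3 members the highest value of the knockout-labelled group was below the lowest control (11.5% of loci) and for 0 its lowest value was above the highest control (11.8%).

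**Figure D1:**
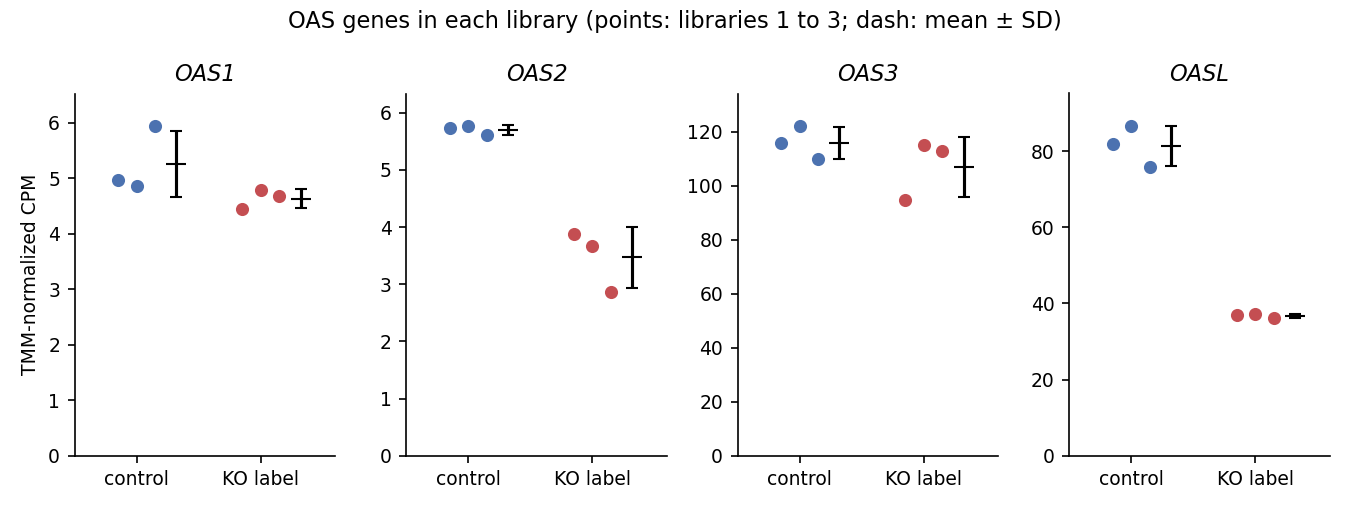
TMM-normalized CPM of OAS1, OAS2, OAS3 and OASL in each library (points), with the mean and SD of 3 libraries per group beside them; each vertical axis starts at 0. OASL lies between 75.8 and 86.5 CPM in control and between 36.1 and 37.1 CPM in the libraries labelled BMAL1 knockout.

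A ratio of members within a library does not depend on normalization. OASL reads per OAS3 read numbered 0.705, 0.708 and 0.688 in control, against 0.391, 0.323 and 0.320 in the group labelled BMAL1 knockout. The groups did not overlap in this ratio. OASL held 39.2%, 39.5% and 38.4% of the reads on the 4 genes in control and 26.4%, 23.2% and 23.1% in the others. OAS3 held the largest share of these reads in every library.

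Per length of annotated exon (RPKM), OASL was the highest in control, at 12.9 ± 0.845 RPKM (SD, n = 3), followed by OAS3 at 6.44 ± 0.329 RPKM. In the libraries labelled BMAL1 knockout, OASL was at 5.82 ± 0.0875 RPKM and OAS3 at 5.95 ± 0.608 RPKM, which did not differ beyond their spread. OAS2 was at 0.508 ± 0.0074 and 0.309 ± 0.0472 RPKM, and OAS1 at 0.403 ± 0.0453 and 0.356 ± 0.0129 RPKM. The order of OAS1 and OAS2 depended on the length used: by the MANE Select transcript, of 1631 bases in OAS1 against 13021 bases of annotated exon, OAS1 was at 3.22 RPKM and OAS2 at 1.23 RPKM in control. By that length OAS3, at 16.3 RPKM, was above OASL, at 11.2 RPKM, in the libraries labelled BMAL1 knockout, while OASL stayed the highest in control at 24.9 RPKM. The MANE Select length was chosen after seeing the data.

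PDE12, which degrades 2-5A, was at 72.6, 71.9 and 81.8 CPM in control and at 60.6, 61.6 and 60.0 CPM in the others, with a log2 fold change of -0.31 and an adjusted p of 0.0630 from edgeR and under 0.05 in 2 of 14 alternatives, 0.0129 from DESeq2 and 0.0424 from edgeR without knockout replicate 1; the highest was 0.196, without knockout replicate 2. ABCE1, also in the list of 2-5A genes, was at 198, 222 and 255 CPM and at 279, 199 and 204 CPM, and the groups overlapped.

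RIG-I, encoded by RIGI, is the sensor that OASL meets. RIGI was at 78.2, 77.3 and 88.2 CPM in control and at 62.5, 54.1 and 50.3 CPM in the libraries labelled BMAL1 knockout. It was lower in all 3 of the latter, at a log2 fold change of -0.55 (SE 0.0960, edgeR adjusted p = 0.0128), and passed in 4 of the 6 fits that left out a library, failing without control replicate 2 (0.0520) and control replicate 3 (0.0796). RIGI shares 4471 exon bases, 43.2% of its own, with another protein-coding gene on the same strand that is also listed, so its value is uncertain. IFIH1, which encodes the sensor MDA5, was at 59.6, 66.0 and 67.2 CPM and at 44.2, 51.7 and 48.2 CPM, at -0.42 on the log2 scale (standard error 0.0876, edgeR adjusted p = 0.0292), and passed in 3 of those 6 fits, failing without control replicate 2 (0.145), control replicate 3 (0.0985) and knockout replicate 3 (0.0692). Of the 10 sensors and adaptors tested, RIGI and IFIH1 were lower and 0 were higher (edgeR; at an unadjusted p under 0.05, 2 and 0; DESeq2, 2 and 0; limma-voom, 2 and 0). Of all 14860 loci, edgeR called 1.43% lower and 1.08% higher; the counts lower and higher were 1156 and 1350 at an unadjusted p under 0.05, 379 and 256 by DESeq2 and 194 and 118 by limma-voom. ADAR and MAVS, the most abundant of the sensors and adaptors, had log2 fold changes of -0.14 and -0.13 (standard errors 0.0815 and 0.0841) and did not pass.

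Interferons induce the OAS genes. Of 10 interferon ligands, IFNA2, IFNK and IFNW1 were at 0 reads in every library, and 5 passed the filter. IFNB1 had 68, 42 and 51 reads in control, against 92, 34 and 102 in the group labelled BMAL1 knockout, and IFNL1 had 74, 88 and 74 and 103, 76 and 101. The log2 fold changes were -0.07 (standard error 0.287) for IFNB1 and -0.28 (standard error 0.178) for IFNL1, and 0 ligands passed (edgeR; at an unadjusted p under 0.05, 1 was lower and 0 were higher; 0 and 0 by DESeq2 and by limma-voom). Of 21 receptors, kinases, factors and inhibitors of the interferon pathway, 0 passed in either direction (edgeR; 2 were lower and 1 was higher at an unadjusted p under 0.05; 0 and 0 by DESeq2 and by limma-voom). Over all 14860 loci, 1156 were lower and 1350 higher at that unadjusted p. JAK1, among the most abundant of this list, was at 132, 135 and 131 CPM in control and at 136, 137 and 135 CPM in the others. It had a log2 fold change of 0.04 (standard error 0.0677).

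Of 43 other interferon-stimulated genes tested, 8 were lower and 0 higher (edgeR; at an unadjusted p under 0.05, 15 and 1; 9 and 0 by DESeq2; 7 and 0 by limma-voom). The same counts over all 14860 loci were 212 and 161 by edgeR, 1156 and 1350 unadjusted, 379 and 256 by DESeq2 and 194 and 118 by limma-voom. The list median was -0.11, where that of all loci was 0.01. IFI44 was at 41.5, 42.3 and 44.6 CPM in control and 31.8, 27.5 and 21.7 CPM in the libraries labelled BMAL1 knockout, a log2 fold change of -0.66 (edgeR adjusted p = 0.0163), and passed in 4 of the 6 fits without a library, failing without control replicate 2 (0.0742) and control replicate 3 (0.0979). IFIT3 was at 194, 198 and 209 CPM and at 144, 147 and 139 CPM, a log2 fold change of -0.48 (edgeR adjusted p = 0.00505), and passed in all 6. IFIT1, IFIT2, DDX60, HERC5, HERC6 and MX2 were lower by log2 fold changes of -0.53, -0.39, -0.38, -0.33, -0.38 and -0.65, and each passed in 1 of the 6, without knockout replicate 1, except MX2, which passed without knockout replicate 2. LGALS3BP, among the most abundant of the list, was at -0.05 (standard error 0.0867). Over all 5 pathway lists together, 10 of 82 tested genes were lower, which is 12.2%, and 0 were higher. Of all loci tested, 1.43% were lower and 1.08% higher, and this is a description of lists that were written with earlier results of these data known. The count of 10 was 4, 1 and 2 without control replicates 1, 2 and 3, and 11, 5 and 3 without knockout replicates 1, 2 and 3. In the same order of fits, all loci called lower numbered 83, 67, 81, 340, 96 and 147. Those called higher numbered 83, 46, 60, 293, 66 and 102.

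**Figure D2:**
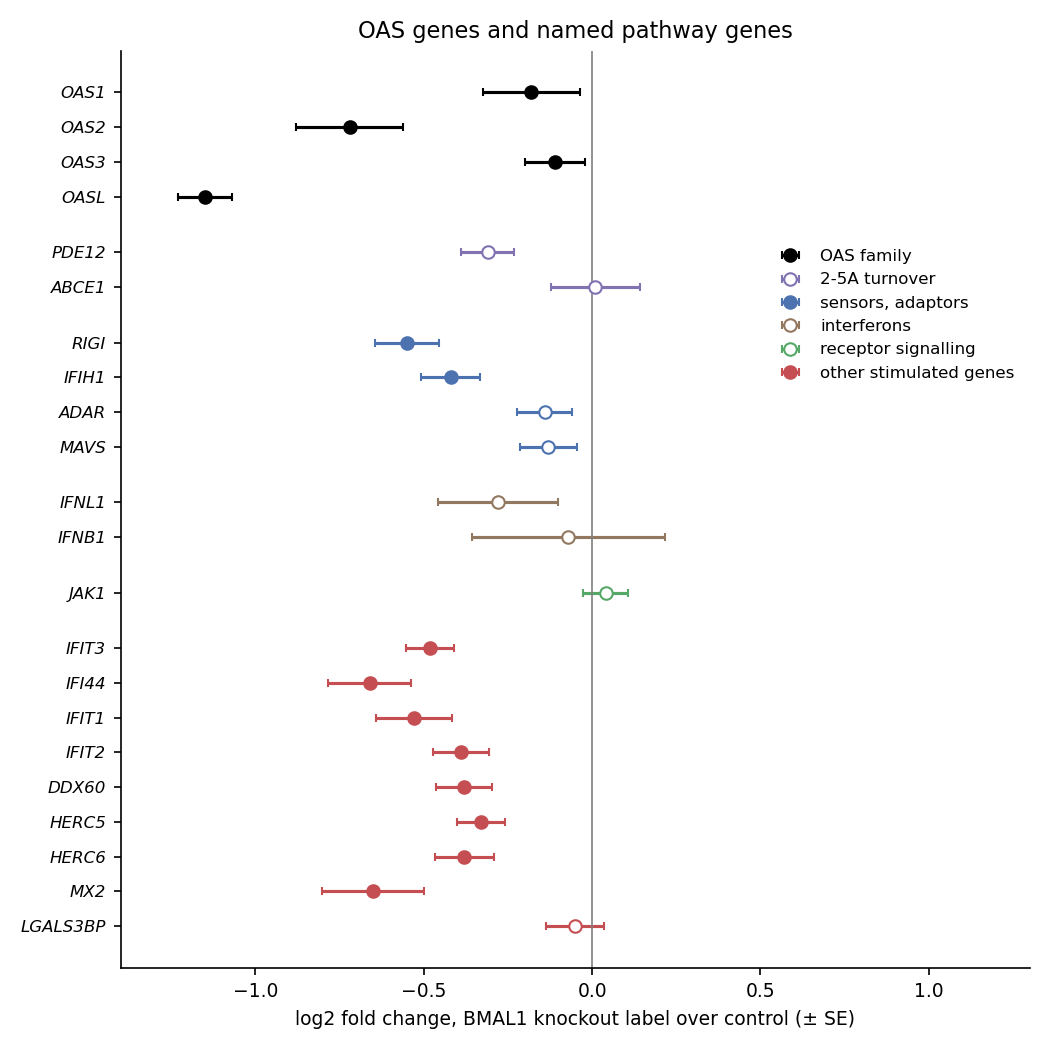
Log2 fold change of libraries labelled BMAL1 knockout over control, with its standard error (bars), for the 4 OAS genes and the named genes of each pathway list (colors). Filled colored points passed an edgeR adjusted p under 0.05 and open points did not; for the OAS genes, in black, which were selected on this contrast, no test result is given. OASL lies at -1.15 and OAS3 at -0.11.

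The 40 tested genes nearest to OASL had a median log2 fold change of -0.24. Of them 33 were below 0, where 47.8% of all loci were, and 7 were above 0. The edgeR test called 7 of the 40 lower and 0 higher (adjusted p under 0.05), where it called 1.43% and 1.08% of all loci. OASL lay 0.90 below that median on the log2 scale, and the lowest of the 40 was PXN, named after its values were seen, at -0.46. Among the 80 nearest, CCDC62, under 1 CPM in every library, had a value below that of OASL, at -1.20 (not passing in edgeR). P2RX4, a tested gene that flanks OASL, was at 0.06 (standard error 0.146). Around OAS1, OAS3 and OAS2 the median of the 40 nearest genes was -0.05, with 25 below 0, and OAS2, at -0.72, lay below the lowest of them, at -0.64, but not below the lowest of the 80 nearest, SELPLG, at -0.99. Whether the neighbourhood plays a part in the OASL value was not tested.

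The pattern of OASL was compared with those of 12459 genes that averaged 1 CPM or more and had reads in every library. The 5 whose pattern over the 6 libraries was nearest to that of OASL were ASIC3, NR1D1, TGM2, SIGLEC15 and CDH4, by root mean square differences of 0.0863, 0.0898, 0.122, 0.134 and 0.148 in centred log2 CPM. NR1D1, a circadian repressor, was at 7.75, 7.11 and 6.86 CPM in control and at 3.07, 3.24 and 2.84 CPM in the libraries labelled BMAL1 knockout. It shares 473 exon bases with THRA on the opposite strand, and TGM2 shares 396 with RPRD1B. SIGLEC15 was close to the limit of 1 CPM, at 1.53, 1.61 and 1.14 CPM in control and 0.562, 0.688 and 0.609 CPM in the others, so its place is uncertain. OAS2 was the nearest relative of OASL, in place 28 with a difference of 0.244, while OAS1 was in place 1840 and OAS3 in place 2454. Seen from OAS2, the nearest gene was IFI44, at 0.0653. With 3 libraries a group, such likeness rests mostly on the difference between the groups.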

How the data were processed

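Total RNA of 6 libraries was sequenced by RNA-seq. The authors deposited counts of reads per gene that were not normalized. By the submitters' processing notes, fastp 0.20.1 and HISAT2 2.0.4 were used with hg38; the methods name the former for mapping and the latter for counting. Gene names were matched to GENCODE v44, with 20018 of 22354 loci found and 2310 loci assembled from reads. CPM with TMM size factors, fold changes and 2-sided p-values were computed in R 4.3.3 with edgeR 4.0.16, through a robust quasi-likelihood fit after its default filter. The p-values were adjusted for 14860 loci as Benjamini and Hochberg described. RPKM used the exon bases of all annotated transcripts. Between replicates of a group, squared differences of counts were 5.41 to 45 times those of counting alone, so spread between replicates limits the precision of abundant genes.

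The members and lists were chosen with earlier results of these data known. Named genes were the members, PDE12, ABCE1, BMAL1, up to 8 called genes and the 2 most abundant of each list, the 5 genes most like OASL, genes that flank it and cell type markers. Some genes under these rules are not reported here. Alternatives were other size factors, filters, lengths and tools (DESeq2 1.42.0, limma-voom in limma 3.58.1), thinning to the smallest library total, a replicate block and leaving out each library.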

Additional observations from a re-analysis of the deposited data

How the results depend on the processing

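Over the 14 alternatives, the log2 fold change of OASL lay between -1.19 and -1.10, that of OAS2 between -0.81 and -0.60, that of OAS1 between -0.23 and -0.08 and that of OAS3 between -0.16 and -0.03, each moving by less than the SD of log2 CPM pooled over both groups (0.069, 0.164, 0.118 and 0.120). BMAL1 lay between 0.50 and 0.70 without each library, and passed in 2 of those 6 fits.

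The count of pathway genes called lower, 10, ranged from 1 to 11 without each library, and was 6 after thinning to the smallest library total and 0 at a fold change over 2 with an unadjusted p under 0.01. Over all loci, 212 were called lower and 161 higher. These counts were 379 and 256 by DESeq2, 176 and 155 after thinning, and 48 and 94 at the fold threshold. They ranged from 67 to 340 and from 46 to 293 without each library. The causes were not tested; fewer samples were fitted when a library was left out.

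The median around the OAS1, OAS3 and OAS2 cluster was -0.02 with 80 neighbours and -0.02 with library size only. By the longest transcript, control and knockout-labelled RPKM were 0.696 and 0.614 for OAS1, 1.02 and 0.618 for OAS2, 12.0 and 11.1 for OAS3, and 24.9 and 11.2 for OASL. By the MANE Select transcript, chosen after seeing the data, they were 3.22 and 2.84, 1.23 and 0.750, 17.6 and 16.3, and 24.9 and 11.2; a shorter length raises each value by construction.

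Correlations of deviations between same-numbered libraries were -0.135, 0.0284 and -0.037, and those between differently numbered libraries ranged from -0.136 to 0.148. With 3 libraries a group, these values show no pairing by replicate number but cannot exclude it. With a replicate block, the log2 fold changes were -1.14 for OASL, -0.73 for OAS2, -0.18 for OAS1 and -0.12 for OAS3. In that fit 7 pathway genes were called lower, and over all loci 145 were called lower and 132 higher. Low counts limit OAS1, OAS2 and the interferons.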
